A study of Mus musculus with 12 samples.

Results

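T cell transcripts in B cell preparations are described here as 39 genes known from T cells, taken by gene name from the table of expression values of Peyer's patch (PP) B cells. Other cells also express some of these genes. All 39 were found among the 36175 genes of the table. They were chosen by name and not by a measured difference between the groups, but with earlier results of these data known. It covers the T cell receptor (TCR) with its CD3 chains (7 genes), coreceptors and other surface proteins (8 genes), proximal signalling proteins (7 genes), transcription factors (6 genes), helper and follicular helper genes (6 genes) and cytotoxic genes (5 genes).

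Bulk RNA-seq was performed on PP B cells of 6 sham controls and 6 stroke mice, with 1 library per mouse. All animals were male wild-type C57BL/6JHsd mice, 10 to 12 weeks old. Stroke mice had the middle cerebral artery occluded for 1 h and then reopened, whereas in sham controls the filament was placed and withdrawn at once, and B cells were purified 18 h after surgery. Cells were first enriched with a magnetic pan B cell kit, which by the study's methods left some epithelial and endothelial cells, and were then taken through CD45 beads, after which the methods state a high purity of B cells. CD45 is carried by T cells as well as by B cells.

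T cells recognize antigen through the TCR, a pair of variable chains that cannot signal alone and therefore sit in a complex with the CD3 chains. When the receptor binds, the kinase Lck, held by the coreceptors CD4 or CD8, starts a cascade through Zap70 and the adaptor Lat. PP are lymphoid follicles of the small intestine in which B cells dominate, T follicular helper cells drive germinal centers, and cytotoxic and intraepithelial T cells lie in and below the covering epithelium.

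The values are labelled as normalized TPM, that is, abundances per transcript length, so that levels of different genes can be compared with caution. In a bulk sample, fewer cells of a type and less RNA per cell cannot be told apart. The labelled cell type was checked with 12 B cell genes, whose summed level was 3483 to 4429 in sham controls and 2208 to 3983 in stroke mice, with the lowest sum in stroke mouse 5. The summed level of 5 defining pan-T genes (Trac, Cd3d, Cd3e, Cd3g and Cd247) was 34.8 to 94.5 in sham controls with a median of 64.5, and 32.1 to 119.5 in stroke mice with a median of 69.2. This equalled 0.871% to 3.10% of the B cell sum, lowest in stroke mouse 4 and highest in stroke mouse 1, with medians of 1.54% in sham controls and 2.10% in stroke mice. As a ratio of sums over different genes, this percent is not the share of T cells. It also depends on the B cell sum, as in stroke mouse 5, with 2.13% at a pan-T sum of only 47.1. No member was at 0 in all mice. Column totals ranged from 559570 in sham mouse 6 to 1404340 in sham mouse 1, and the sum of 12 epithelial genes from 36.1 to 2530, so that the libraries were not alike in composition. None of the 12 epithelial genes was at 0 in all mice.

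Many T cell transcripts varied widely between mice of the same group, while others, such as Lck, were more even. For the members tested other than Cd2 and Foxp3, the difference between the groups did not pass the test even before adjustment. Of the 39 members, 35 passed the filter on low values (a geometric mean level of about 1 over all mice) and were tested with limma among 15163 genes. At an unadjusted p under 0.05, 1 member was higher in stroke mice (Foxp3), against 4.33% of all genes tested, and 1 was lower (Cd2), against 1.58% of all genes tested. These were 2 of 35 members, or 5.71%, and 896 of 15163 genes, or 5.91%, were called in either direction. With all 12 mice, the share of members called was thus close to that of all genes. With Benjamini-Hochberg adjustment over all genes, no member passed in limma (adjusted p from 0.793 to 0.998), and 1 gene of the whole table did (0.0066%), the predicted gene Gm9406. Sham and stroke values overlapped for every member tested, while 0.35% of all genes were higher and 0.0725% lower without overlap. The median log2 fold change (stroke minus sham) was 0.13 over the 35 members and 0.011 over all genes tested. It lay above 0 for 25 of 35 members (71.4%) and for 51.9% of all genes. Of all genes called, 657 were higher and 239 lower, a split that became 485 and 317 after quantile normalization and 1633 and 32 after scaling to the same B cell level. That scaling moved the median log2 fold change of all genes to 0.27 and that of the members to 0.40, and scaling to the same column total moved them to 0.13 and 0.25.

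**Figure D1:**
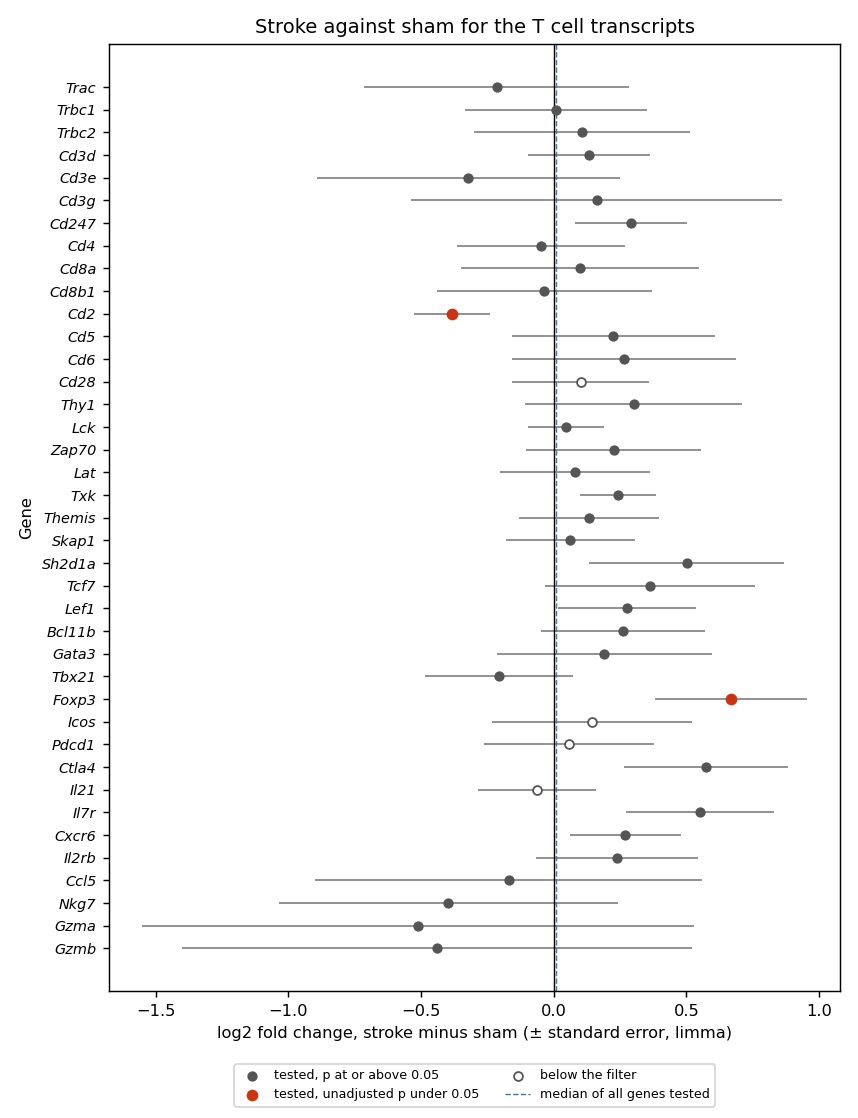
Log2 fold change, stroke minus sham, of the 39 T cell transcripts on the x axis, with 1 gene per line, the standard error from limma as bars and the median of all genes tested as a dashed line. Cd2 at -0.38 and Foxp3 at 0.67 are the members with an unadjusted p under 0.05, and Gzma and Gzmb have the widest errors.

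Cd2, an adhesion receptor that mouse B cells also carry, was the member lower in stroke mice. Cd2 (ENSMUSG00000027863, chr3:101275899-101287939, minus strand, GRCm38) ranged from 72.1 to 119.1 in sham controls with a median of 96.1, and from 56.5 to 87.4 in stroke mice with a median of 74.3. None of the 6 stroke mice reached the sham mean, but the ranges overlapped, with 5 of 6 stroke mice (all but stroke mouse 5) within the sham range and sham mouse 6 within the stroke range. The mean fell from 96.6 ± 16.7 to 73.5 ± 9.89 (SD, n = 6 each), a log2 fold change of -0.38 (SE 0.14; limma, unadjusted p = 0.0189, adjusted p = 0.793). For Cd2, the log2 fold change was -0.26 after scaling to the same total and -0.11 after scaling to the same B cell level, with unadjusted limma p of 0.195 and 0.52. With the epithelial genes as a covariate it was -0.29, with 0.0588, and without sham mice 1 and 2 it was -0.33, with 0.0564.

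Foxp3, the transcription factor of regulatory T cells, was the member higher in stroke mice. Foxp3 (ENSMUSG00000039521, chrX:7573644-7595245, plus strand) ranged from 1.02 to 3.61 in sham controls with a median of 2.32, and from 2.15 to 6.13 in stroke mice with a median of 3.23. Of the 6 stroke mice, 5 lay above the sham mean, with stroke mice 5 and 3 highest, and the ranges overlapped. The mean was 2.18 ± 0.990 in sham controls and 3.71 ± 1.51 in stroke mice (SD, n = 6), a log2 fold change of 0.67 (SE 0.29; limma, unadjusted p = 0.0379, adjusted p = 0.793). Without sham mouse 2, 3 or 4 or stroke mouse 3, 4 or 5, the unadjusted limma p was between 0.051 and 0.0883. It was 0.0529 after quantile normalization (log2 fold change 0.63) and 0.105 with the epithelial covariate (0.51). Exons of Foxp3 overlap those of Ccdc22 (12.9% of the exonic bases), Gm36995 (8.15%) and Ppp1r3f (5.81%) on the other strand, and of Flicr (18.6%) on the same strand. Strandedness of the libraries is not given in the sources used here.

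The TCR chains and the CD3 complex were present in every mouse, and none of the 7 genes passed the test. Trac, the constant part of the TCR alpha chain, ranged from 3.99 to 12.4 in sham controls (median 7.77) and from 1.53 to 14.1 in stroke mice (median 8.75), with a log2 fold change of -0.22 (SE 0.50). Both the lowest values, in stroke mice 4 and 5, and the highest, in stroke mice 1 and 6, came from the stroke group. Trbc1, one of the alternative constant parts of the TCR beta chain, ranged from 5.96 to 17.0 in sham controls (median 10.2) and from 4.26 to 18.3 in stroke mice (median 12.6). Trbc2, the other, ranged from 3.21 to 13.5 (median 6.50) and from 2.86 to 14.0 (median 10.1). For both, stroke mouse 4 was lowest and stroke mouse 6 highest, and the log2 fold changes were 0.0079 (SE 0.34) and 0.11 (SE 0.41).

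The split of values between Trbc1 and Trbc2 is uncertain because the genes are near-identical copies. Trbc1 (chr6:41538218-41539881) and Trbc2 (chr6:41546730-41548352) lie 6848 bases apart on the plus strand. Their GENCODE M21 transcripts share 487 of 508 aligned bases (95.9%), and the first 259 bases are the same. The stretch from base 367 to base 446 of the aligned transcripts, with 10 of the 21 differences in capitals, shows the bases by which a read can be given to either gene:
Trbc1: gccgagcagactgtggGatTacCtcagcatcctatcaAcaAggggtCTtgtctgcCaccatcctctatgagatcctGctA
Trbc2: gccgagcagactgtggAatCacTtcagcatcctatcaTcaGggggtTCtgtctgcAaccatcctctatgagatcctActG
A read that lies within the aligned bases and covers none of the 21 differences is shared out between both genes by the quantification. The Trbc2 transcript is longer (692 bases against 512), and reads from its unaligned part can be given to Trbc2.

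The 3 CD3 genes clustered on chromosome 9 did not vary in the same way across mice. Cd3e, a CD3 chain that pairs with either of the other ones, ranged from 4.45 to 22.9 in sham controls (median 12.3) and from 2.51 to 27.7 in stroke mice (median 9.02), with a log2 fold change of -0.32 (SE 0.57). Cd3g, the gamma chain of CD3, ranged from 2.72 to 26.3 (median 17.2) and from 2.95 to 46.3 (median 16.1), with 0.16 (SE 0.70). Cd3d, the delta chain, ranged from 12.3 to 32.9 (median 16.6) and from 15.3 to 27.8 (median 18.5), with 0.13 (SE 0.23). Cd3e and Cd3g were highest in stroke mouse 1 and low in sham mice 5 and 6 and stroke mice 4 and 5, whereas Cd3d was highest in sham mouse 6 and lowest in sham mouse 2. The highest value was 11.1-fold the lowest for Cd3e, 17.0-fold for Cd3g and 2.67-fold for Cd3d. Across the 12 libraries, log2 values of Cd3e and Cd3g correlated with those of Gzma at Pearson r of 0.88 and 0.92, and those of Cd3d at -0.50, which describes mice that share all libraries and is no test. Cd247, the zeta chain that carries most signalling motifs of the complex, ranged from 5.65 to 13.4 (median 7.63) and from 6.99 to 14.2 (median 10.9), with a log2 fold change of 0.29 (SE 0.21). Of its exonic bases, 56.4% overlap Pou2f1 on the other strand, a gene at a mean of 56.2 here, so that its values may hold reads of both.

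**Figure D2:**
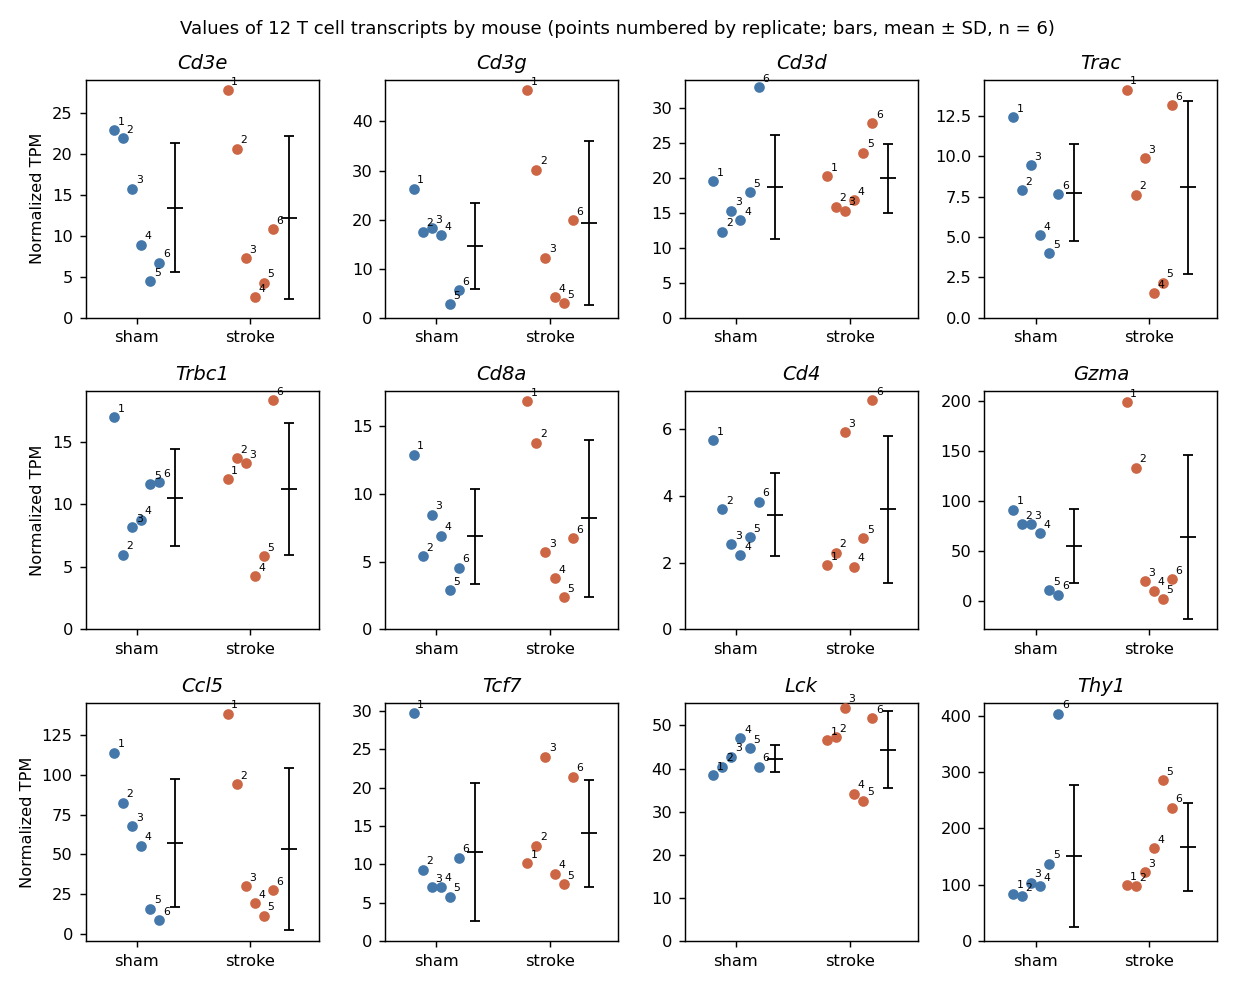
Normalized TPM on the y axis for 12 T cell transcripts in each mouse, by group on the x axis, with points numbered by replicate and the mean ± SD (n = 6) beside them. In Cd3e, Cd3g, Cd8a, Gzma and Ccl5, stroke mouse 1 is the highest, whereas Thy1 and Cd3d are highest in sham mouse 6 and Lck varies little.

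The promoters of the 3 CD3 genes and of 2 granzyme genes are shown because Cd3e, Cd3g, Gzma and Gzmb varied together across mice, while Cd3d, which starts next to Cd3g and runs the other way, did not. Cd3g (chr9:44969572-44980431) and Cd3d (chr9:44981786-44987339) are 1354 bases apart, and Cd3e (chr9:44998740-45009627) follows after 11400 bases. The 250 bases before each start site are given 5′ to 3′ on the gene's own strand, from RefSeq on GRCm38.p6, and capitals mark matches to the motifs whose letters follow:
Cd3g, chr9:44980432-44980681, minus strand: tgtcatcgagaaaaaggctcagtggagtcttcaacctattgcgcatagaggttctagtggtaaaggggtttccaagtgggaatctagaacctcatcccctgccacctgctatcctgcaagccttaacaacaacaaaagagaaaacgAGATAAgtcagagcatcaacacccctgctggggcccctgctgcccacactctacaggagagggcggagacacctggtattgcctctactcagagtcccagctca
Cd3d, chr9:44981536-44981785, plus strand: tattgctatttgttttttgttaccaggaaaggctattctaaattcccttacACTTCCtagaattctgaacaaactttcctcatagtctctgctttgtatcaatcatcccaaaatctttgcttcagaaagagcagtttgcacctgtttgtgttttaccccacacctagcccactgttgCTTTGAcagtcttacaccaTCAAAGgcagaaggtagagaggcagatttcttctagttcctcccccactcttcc
Cd3e, chr9:45009612-45009861, minus strand: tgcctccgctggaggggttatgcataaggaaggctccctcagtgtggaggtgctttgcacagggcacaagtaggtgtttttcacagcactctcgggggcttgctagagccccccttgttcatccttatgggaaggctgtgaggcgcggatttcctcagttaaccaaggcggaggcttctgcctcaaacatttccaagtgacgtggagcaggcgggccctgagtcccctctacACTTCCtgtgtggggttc
Gzma, chr13:113100982-113101231, minus strand: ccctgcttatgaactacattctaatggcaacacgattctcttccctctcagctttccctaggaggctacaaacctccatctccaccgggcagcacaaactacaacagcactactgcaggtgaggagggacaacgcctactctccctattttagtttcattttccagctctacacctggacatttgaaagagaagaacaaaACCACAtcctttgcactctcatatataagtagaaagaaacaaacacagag
Gzmb, chr14:56262335-56262584, minus strand: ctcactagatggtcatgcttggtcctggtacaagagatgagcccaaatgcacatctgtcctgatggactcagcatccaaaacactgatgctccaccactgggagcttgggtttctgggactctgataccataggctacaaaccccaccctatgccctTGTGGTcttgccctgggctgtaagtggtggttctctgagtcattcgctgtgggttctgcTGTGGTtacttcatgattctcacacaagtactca
Short motifs of 5 transcription factor families were searched on both strands, and no marked matches overlap. The RUNX motif was found before both granzyme genes and before none of the CD3 genes. In all, 25 members have 35 entries in the table of promoters, since some have several start sites. The RUNX motif, TGTGGT, stood in 7 of these 35 entries and in 14.0% of all 32851 promoters of the same length. The ETS motif, GGAAGT, stood in 14 of the members' entries (40.0%) against 19.7% of all promoters. For the TCF/LEF motif, CTTTGA, these were 6 entries (17.1%) against 13.8%. The GATA motif, AGATAA, was found in 3 entries (8.57%) against 9.99%. The E-box, CAGCTG, was likewise found in 3 entries (8.57%) against 13.0%. These are matches of letters, given as a description, and whether they bear on the variation across mice was not tested.

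Of the coreceptor and surface genes, Cd2 alone passed the test at an unadjusted p. Cd8a, the alpha chain of the cytotoxic coreceptor, ranged from 2.90 to 12.9 in sham controls (median 6.17) and from 2.38 to 16.8 in stroke mice (median 6.22), with a log2 fold change of 0.099 (SE 0.45). Cd8b1, its beta chain, ranged from 0.925 to 8.40 (median 1.74) and from 1.07 to 4.12 (median 1.92), with -0.035 (SE 0.41). Cd8a was highest in stroke mice 1 and 2, where Cd8b1 stood at only 1.95 and 1.37. The highest Cd8b1 was in sham mouse 1. Cd4, the coreceptor of helper T cells, ranged from 2.23 to 5.67 (median 3.19) and from 1.88 to 6.87 (median 2.52), with -0.046 (SE 0.32). It was highest in stroke mice 6 and 3 and in sham mouse 1, and near its lowest in stroke mouse 1, which had the most Cd8a. The direction for Cd4 and Cd8b1 turned after scaling to the same total, to 0.059 and 0.066.

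Cd5 and Cd6, related receptors that dampen TCR signals (Cd5 is also found on a subset of B cells), correlated with Cd4 across the 12 libraries at Pearson r of 0.77 and 0.84. Cd5 ranged from 1.79 to 5.44 in sham controls (median 2.76) and from 1.59 to 7.22 in stroke mice (median 3.90), with a log2 fold change of 0.23 (SE 0.38). Cd6 ranged from 0.935 to 5.04 (median 1.43) and from 1.09 to 6.33 (median 1.75), with 0.27 (SE 0.42). Both were highest in stroke mouse 6. Cd28, the main costimulatory receptor, stayed under the filter at 0.415 to 1.37 (median 0.670) and 0.446 to 2.05 (median 0.623).

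Thy1, a surface glycoprotein of mouse T cells that neurons and fibroblasts also carry, had the highest mean of all members (159.1 over 12 mice). It ranged from 79.3 to 403.9 in sham controls (median 100.1) and from 96.8 to 285.1 in stroke mice (median 143.5), with a log2 fold change of 0.30 (SE 0.41). Sham mouse 6 was the highest, followed by stroke mice 5 and 6, and the 5 other sham controls stayed at or under 136.9. Across the 12 libraries, log2 values of Thy1 correlated with those of Gzma at Pearson r of -0.83 and with Cd4 at 0.17. In stroke mouse 1, the highest for Cd3e and Gzma, Thy1 was 98.9.

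None of the 7 proximal signalling genes passed the test, although all 7 log2 fold changes lay above 0. Lck, the kinase that starts TCR signalling, was the most even of all members, at 38.5 to 47.0 in sham controls (median 41.6) and 32.6 to 54.1 in stroke mice (median 46.9), with a log2 fold change of 0.046 (SE 0.14). Its highest value was 1.66-fold its lowest, and its mean of 43.4 was several times that of Cd3e at 12.8. Log2 values of Lck correlated with those of Gzma at a Pearson r of 0.43 and with Cd4 at 0.35 across mice. Which cells its values came from was not tested. Zap70, the kinase that binds phosphorylated CD3 chains, ranged from 3.83 to 8.62 (median 6.73) and from 3.47 to 12.1 (median 8.88), with 0.23 (SE 0.33). Lat, the membrane adaptor downstream of Zap70, ranged from 4.03 to 11.4 (median 6.66) and from 4.02 to 14.7 (median 6.72), with 0.081 (SE 0.28). Both were lowest in stroke mouse 4.

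Txk, a kinase of the Tec family, ranged from 4.01 to 5.30 in sham controls (median 4.59) and from 3.96 to 7.86 in stroke mice (median 5.47). Of the stroke mice, 5 of 6 lay above the sham mean, at a log2 fold change of 0.24 (SE 0.14; limma, unadjusted p = 0.118, adjusted p = 0.793). Themis, needed for thymic selection, ranged from 1.31 to 4.61 (median 1.99) and from 1.27 to 4.01 (median 2.40), with 0.13 (SE 0.26). Skap1, an adaptor that links the TCR to integrins, ranged from 5.93 to 11.1 (median 7.71) and from 5.11 to 14.3 (median 8.48), with 0.063 (SE 0.24). Themis and Skap1 were, like Zap70 and Lat, lowest in stroke mouse 4. Sh2d1a, which encodes the adaptor SAP of follicular helper and cytotoxic T cells, ranged from 1.54 to 4.86 (median 2.87) and from 1.22 to 10.6 (median 4.27). Stroke mouse 6 was highest and stroke mouse 2 lowest, and the log2 fold change was 0.50 (SE 0.37; limma, unadjusted p = 0.197, adjusted p = 0.810). Of its exonic bases, 26.6% overlap Tenm1 on the other strand.

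Of the 6 transcription factors, Foxp3 alone passed at an unadjusted p. Tcf7, which encodes TCF-1 of naive and follicular helper T cells, ranged from 5.77 to 29.7 in sham controls (median 8.196) and from 7.39 to 24.1 in stroke mice (median 11.3), with a log2 fold change of 0.36 (SE 0.40). Lef1, its partner in early T cells, ranged from 3.98 to 9.01 (median 4.98) and from 4.44 to 9.85 (median 7.47), with 0.28 (SE 0.26). Bcl11b, which keeps cells in the T lineage, ranged from 0.918 to 3.64 (median 1.65) and from 0.930 to 4.50 (median 2.10), with 0.26 (SE 0.31). Sham mouse 1 and stroke mice 3 and 6 had the 3 highest values of Tcf7 and of Bcl11b, as of Cd4. Of the exonic bases of Lef1, 13.7% overlap Gm43352 on the other strand.

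Gata3, the regulator of type 2 helper cells, ranged from 1.15 to 6.55 in sham controls (median 1.70) and from 1.56 to 6.92 in stroke mice (median 2.37), with a log2 fold change of 0.19 (SE 0.40). It stood high in stroke mouse 6 and sham mouse 2, at 4.26 in sham mouse 6 and under 3 in the others. Tbx21, which encodes T-bet of type 1 helper and cytotoxic cells, ranged from 1.78 to 4.05 (median 3.44) and from 0.954 to 4.18 (median 2.995), with -0.21 (SE 0.28). Its lowest values were in stroke mouse 5 and sham mouse 6.

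Of the 6 helper and follicular helper genes, 3 passed the filter and none of these passed the test. Il7r, the receptor for the survival factor interleukin 7, ranged from 3.01 to 11.8 in sham controls (median 5.62) and from 5.67 to 13.6 in stroke mice (median 9.41). In 5 of 6 stroke mice it lay above the sham mean, at a log2 fold change of 0.55 (SE 0.28; limma, unadjusted p = 0.0706, adjusted p = 0.793). Il7r was at 0.67 after scaling to the same total and at 0.81 at the same B cell level, with unadjusted limma p of 0.0258 and 0.0318. Ctla4, an inhibitory receptor abundant on regulatory T cells, ranged from 0.489 to 2.90 (median 1.68) and from 1.55 to 3.51 (median 2.43). The log2 fold change was 0.57 (SE 0.31; limma, unadjusted p = 0.0872, adjusted p = 0.793), and 5 of 6 stroke mice lay above the sham mean. Foxp3, Ctla4 and Il7r had the largest log2 fold changes above 0 among the members tested, and each of their ranges overlapped between groups.

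Without sham mouse 1, which was highest of the sham controls for all 3 of these genes, 5 of 35 members (14.3%) were higher at an unadjusted limma p under 0.05 (Cd247, Tcf7, Foxp3, Ctla4 and Il7r), against 3.81% of all genes. Without stroke mouse 2, 3 members (8.57%) were (Foxp3, Il7r and Sh2d1a), against 4.58% of all genes. Without sham mouse 2, 3 or 4 or stroke mouse 3 or 5, no member was, against 3.28% to 4.53% of all genes. Without stroke mouse 4, Txk took the place of Foxp3, with 3.95% of all genes higher. Cd2 kept an unadjusted p under 0.05 without any single mouse, from 0.00414 without sham mouse 6 to 0.0446 without sham mouse 2.

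Cxcr6, a chemokine receptor of tissue T cells, ranged from 3.97 to 5.87 in sham controls (median 4.78) and from 4.50 to 11.6 in stroke mice (median 5.26), with a log2 fold change of 0.27 (SE 0.21). The 11.6 of stroke mouse 5 stood alone, and without that mouse the log2 fold change was 0.082. Icos, Pdcd1 and Il21 stayed under the filter. Icos, a costimulatory receptor, ranged from 0.093 to 2.28 (median 0.702) and from 0.258 to 2.14 (median 0.835). Pdcd1, which encodes the inhibitory receptor PD-1, ranged from 0.226 to 1.45 (median 0.362) and from 0.116 to 1.25 (median 0.371). Il21, the follicular helper cytokine, ranged from 0.295 to 1.09 (median 0.546) and from 0.290 to 1.37 (median 0.432). Icos, Pdcd1 and Cd28 were each among their highest in sham mouse 1 and stroke mouse 6, and Il21 was highest in stroke mouse 6.

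Of all members, the cytotoxic genes Gzmb, Gzma and Nkg7 varied most between mice by the ratio of the highest to the lowest value, and none of the 5 cytotoxic genes passed the test. Gzma (chr13:113093825-113100981, minus strand), which encodes granzyme A, a protease of cytotoxic granules, ranged from 6.42 to 90.9 in sham controls (median 72.2) and from 2.27 to 198.4 in stroke mice (median 20.5). Sham mice 1 to 4 lay between 67.9 and 90.9 and stroke mice 1 and 2 at 198.4 and 133.0, while the other 6 mice stayed at or under 21.4. The mean was 54.8 ± 36.6 in sham controls and 64.1 ± 81.6 in stroke mice (SD, n = 6), whereas the log2 fold change was -0.51 (SE 1.04; limma, unadjusted p = 0.632, adjusted p = 0.919), so that mean and log scale pointed in opposite directions. Gzmb, which encodes granzyme B, ranged from 1.67 to 19.1 (median 13.6) and from 0.282 to 41.3 (median 4.86), with a log2 fold change of -0.44 (SE 0.96). Ccl5, a chemokine that memory and cytotoxic T cells store, ranged from 8.54 to 113.9 (median 61.7) and from 11.4 to 138.3 (median 28.8), with -0.17 (SE 0.73). Nkg7, a granule membrane protein, ranged from 1.16 to 5.75 (median 4.70) and from 0.179 to 10.9 (median 2.39), with -0.40 (SE 0.64). All 4 were highest in stroke mouse 1. Il2rb, a receptor chain for interleukins 2 and 15, ranged from 2.89 to 10.9 (median 5.97) and from 4.54 to 11.3 (median 7.06), with 0.24 (SE 0.31). Natural killer cells also express these 5 genes. The log2 fold changes of Gzma and Gzmb, without stroke mouse 5, were 0.14 and 0.16, and without stroke mouse 1 they were -1.09 and -0.98.

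Separate patterns of variation across mice, each over the same 12 libraries and each given as a description, stood out among the members. Log2 values of 7 of the other 38 members (Gzmb, Ccl5, Nkg7, Cd3g, Cd8a, Cd3e and Il2rb) correlated with those of Gzma at a Pearson r of at least 0.8, up to 0.99 for Gzmb. Those of 5 members (Pdcd1, Cd28, Cd6, Bcl11b and Tcf7) did so with Cd4, up to 0.86, of which Pdcd1 and Cd28 were under the filter. Gzma and Cd4 themselves had an r of -0.13. Gzma, Gzmb, Ccl5 and Nkg7 were high in sham mice 1 to 4 and stroke mice 1 and 2, and Cd4 in sham mouse 1 and stroke mice 3 and 6. The separation was less sharp for Cd3g, Cd3e, Cd8a and Il2rb, as with Cd3g at 19.9 in stroke mouse 6.

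**Figure D3:**
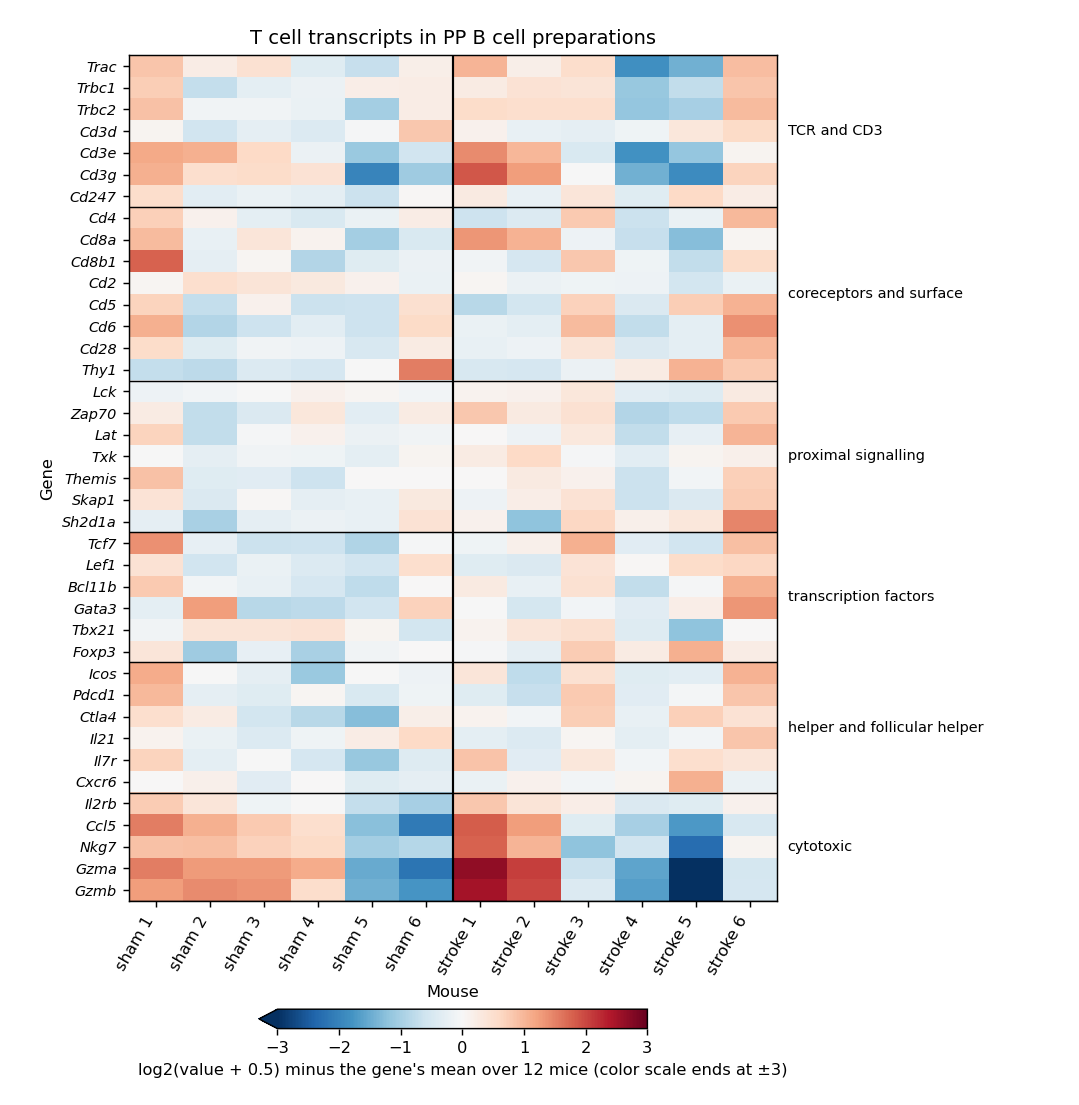
Log2(value + 0.5) of the 39 T cell transcripts (rows, by role) in each mouse (columns), minus the gene's mean over 12 mice, with red above and blue below that mean and a color scale that ends at 3 on either side. The cytotoxic genes with Cd3e, Cd3g and Cd8a are red in stroke mice 1 and 2, whereas Cd4, Cd6, Tcf7 and Bcl11b are red in sham mouse 1 and stroke mice 3 and 6.

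Epithelial transcripts moved with the cytotoxic pattern, and so did those of plasma cells. The summed level of the 5 cytotoxic members was 20.8 to 238.5 in sham controls and 18.8 to 400.3 in stroke mice, and that of the 12 epithelial genes 38.7 to 2530 and 36.1 to 1359. Both sums were low in sham mouse 6 and stroke mice 4 and 5 and high in sham mice 1 and 2 and stroke mouse 1, but in sham mouse 5 an epithelial sum of 861.6 stood beside a cytotoxic sum of 33.6. Log2 values of Gzma correlated with those of Epcam, an epithelial adhesion protein, at a Pearson r of 0.70 over the 12 libraries, and those of Ccl5 at 0.75. Cd2 had 0.68 and Thy1 -0.76 with Epcam. The plasma cell sum, too, was highest in sham mice 1 to 4 and stroke mice 1 and 2 (1486 in sham mouse 1). It was lowest in sham mouse 6 (294.5) and stroke mouse 5 (371.9), so that the pattern was not particular to cytotoxic and epithelial genes. None of the 12 epithelial genes passed the test, with a median log2 fold change of -1.57 and no log2 fold change above 0. With the mean log2 value of the epithelial genes as a covariate, a fit chosen after seeing the data, the log2 fold change was 0.57 for Gzma, 0.54 for Gzmb, 0.65 for Ccl5, 0.24 for Nkg7 and 0.29 for Cd3e, all above 0 where they had been below. In that fit Il2rb at 0.59 and Il7r at 0.66 were the members called (5.71%, against 3.81% of all genes higher), with unadjusted limma p of 0.0111 and 0.0461, none at an adjusted p under 0.05 (lowest 0.973 in limma). Without sham mice 1 and 2, those with the highest epithelial sums, Gzma was at 0.068 and Cd3e at 0.15. Whether intraepithelial cells contributed was not tested.

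**Figure D4:**
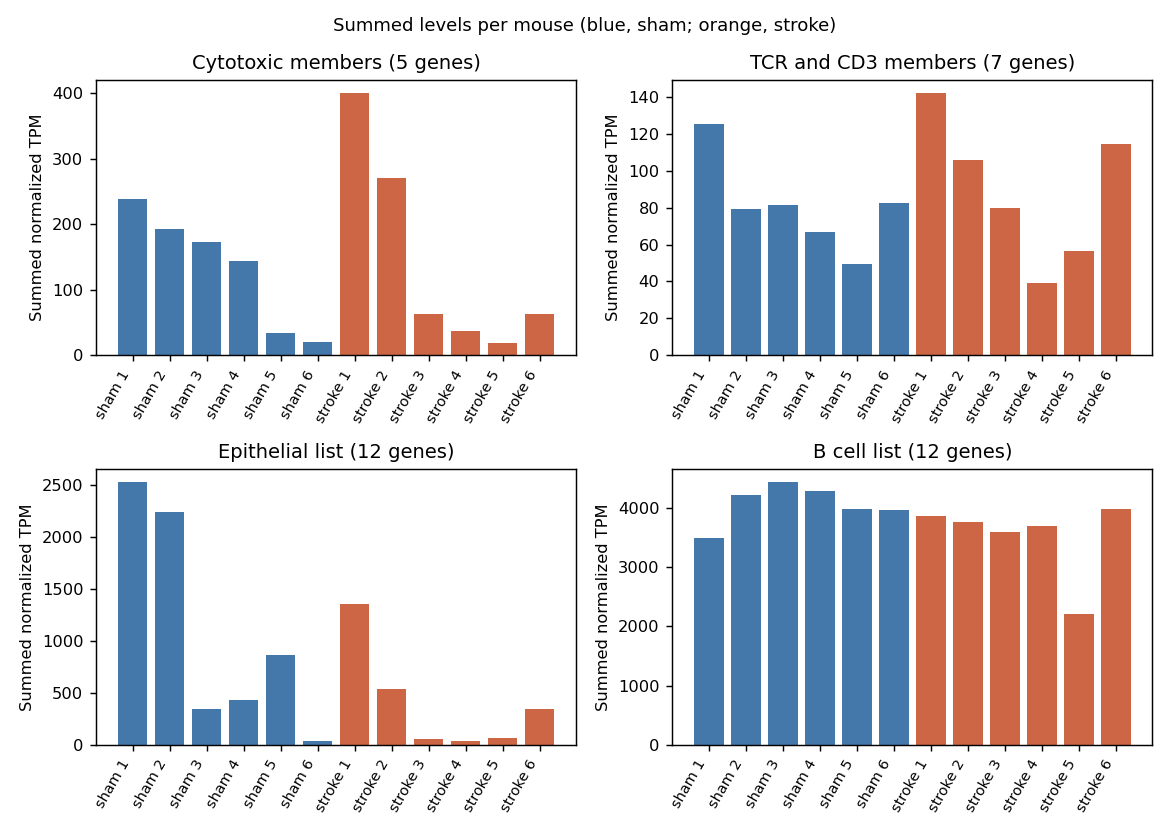
Summed normalized TPM on the y axis in each of 12 mice on the x axis for the cytotoxic members, the TCR and CD3 members, the epithelial genes and the B cell genes. The cytotoxic sum reaches 400.3 in stroke mouse 1 and 18.8 in stroke mouse 5, whereas the B cell sum is lowest, at 2208, in stroke mouse 5.

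Genes of intraepithelial and gamma delta T cells, listed apart from the members, gave no call. Of 9 genes 8 were tested, and those with the highest means were Itgae, Fcer1g, Trgc1 and Trgc2. Their sum was 15.6 to 63.5 in sham controls and 10.1 to 112.5 in stroke mice, highest in stroke mouse 1 and lowest in stroke mouse 5, as for the cytotoxic members. Of 10 further genes of natural killer cells and cytotoxicity, 5 were tested and none was called, led in level by Tyrobp, Klrd1, Klre1 and Prf1.

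A further list of 30 T cell genes outside the members, of which 29 were tested, held 2 that were higher and 1 that was lower at an unadjusted p, against 4.33% and 1.58% of all genes tested. Tigit, an inhibitory receptor of follicular helper and regulatory T cells, had a mean of 4.20 ± 0.843 in sham controls and 8.59 ± 4.18 in stroke mice (SD, n = 6), at a log2 fold change of 0.83 (SE 0.29; limma, unadjusted p = 0.0150, adjusted p = 0.793). Tox2, a transcription factor of follicular helper cells, stood at 8.74 ± 2.74 and 13.3 ± 3.05, with 0.60 (SE 0.22; limma, unadjusted p = 0.0157, adjusted p = 0.793). S1pr1, the receptor by which lymphocytes leave lymphoid tissue, stood at 73.1 ± 19.5 and 44.7 ± 14.4, with -0.71 (SE 0.23; limma, unadjusted p = 0.0096, adjusted p = 0.793). The genes with the highest means in that list, Ikzf3, Bach2, Ccr6 and Satb1, are expressed by B cells as well, and B cells also carry S1pr1. The median log2 fold change of the list was 0.035.

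The balance of the coreceptors was then compared within each mouse. The ratio of Cd8a to Cd4 was 2.27, 1.497, 3.30, 3.11, 1.05 and 1.18 in sham mice 1 to 6 whereas stroke mice 1 to 6 had 8.78, 5.97, 0.963, 1.999, 0.870 and 0.981. Stroke mice 1 and 2 had the highest ratios and stroke mice 3, 5 and 6 the lowest, so that the stroke group held both ends. After 0.5 was added to both values, the log2 ratio was 0.82 ± 0.64 in sham controls and 0.96 ± 1.32 in stroke mice (SD, n = 6), a difference of 0.15 (exact two-sided permutation test, p = 0.805). Without stroke mouse 1 the difference was -0.23. With 6 against 6 mice, the smallest p of this test is 0.00216.

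**Figure D5:**
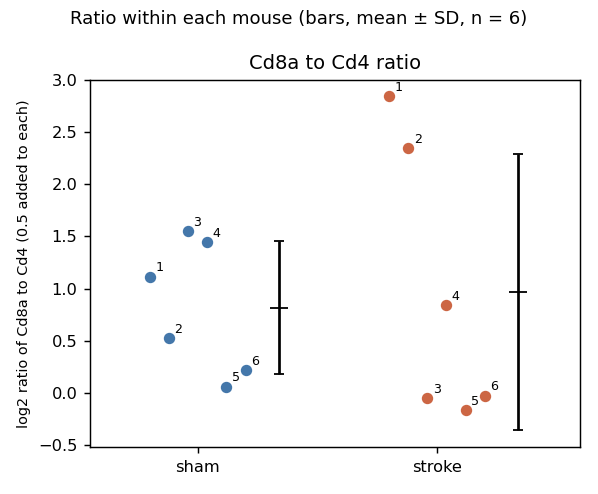
Log2 ratio of Cd8a to Cd4 on the y axis in each mouse, by group on the x axis, with points numbered by replicate and the mean ± SD (n = 6) beside them. The ratio overlaps between groups and is spread more widely in stroke mice than in sham controls, with SDs of 1.32 and 0.64.

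Other genes followed the 5 defining pan-T genes across mice. Among the genes tested outside the members, the highest Pearson r of log2 values with the mean of the pan-T genes over 12 mice were those of Klk8 and Vsir (both 0.95), Plpbp (0.91), Ikzf2 (0.90), Itgae (0.89), Prkch (0.88), Cela1 (0.88), Nthl1 (0.87), Prdm1 (0.87) and Adgrg1 (0.86). Itgae encodes the integrin by which intraepithelial T cells bind the epithelium, and Vsir an inhibitory receptor of T and myeloid cells. Itgae was 2.77 to 23.2 over the mice and highest in stroke mouse 1. The lowest r were those of Clcn6 (-0.84), Slc10a1 (-0.82) and Nfe2l3 (-0.80). These were picked from 15163 genes over 12 libraries and are a description.

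The remaining lists gave the levels of other cell types beside these results. Of 12 B cell genes, all tested, 1 was lower at an unadjusted p (Cr2, a complement receptor; log2 fold change -0.83, limma, unadjusted p = 0.0191, adjusted p = 0.793), against 1.58% of all genes, and the list was led in level by Cd22, Cd37 and Cd79a. All 6 germinal center genes (led by Mef2b, Bcl6 and Gcsam) and all 6 plasma cell genes (led by Jchain, Mzb1, Xbp1 and Irf4) were tested without a call. The epithelial list was led by Fabp1, Fabp2, Lgals4 and Krt8. Of 8 myeloid genes 7 were tested without a call (led by Lyz2, Tyrobp, Itgax and Cd68). None of 6 neutrophil genes passed the filter (led by Csf3r, Retnlg, S100a9 and S100a8), and 1 of 5 endothelial genes (led by Pecam1, Cdh5, Kdr and Tek) and 1 of 5 stromal genes (led by Col1a2, Col3a1, Pdgfra and Col1a1) did, without a call. The part of these cell types in the members' values was not tested.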

How the data were processed

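RNA-seq was analysed in PP B cells of 6 sham controls and 6 stroke mice. The authors trimmed reads with Trimmomatic 0.39, quantified transcripts with kallisto 0.48.0 on GRCm38 and made gene values with sleuth 0.30.0 in R 4.1.2. The deposited values are an expression signal labelled as normalized TPM. Their column totals differ, which plain TPM would not, so that tests planned for TPM were run on a signal whose scaling is not given in the sources used here. The table holds no read counts, and the depth of each library is unknown.

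Log2(value + 0.5) was tested with limma 3.58.1 in R 4.3.3, two-sided, with Benjamini-Hochberg adjustment, in 15163 genes with a mean log2(value + 0.5) of at least that of a value of 1. The pseudocount shrinks fold changes of low genes. P-values measure the spread between mice. The ratio of Cd8a to Cd4 was compared by exact permutation of mice. A planned T cell to B cell ratio and some genes of the lists are not reported here. In a test on simulated data, 200 of 15163 genes were given a log2 change of 1.5, of which 161 passed at an adjusted p under 0.05, as did 3 unchanged genes. All 39 members are named, with the 4 highest genes of each other list and the 10 most and 3 least similar to the pan-T mean. Genes called in a list are named beyond that rule. Members and lists were chosen with earlier results of these data known. Gene positions came from GENCODE M21, in which all 39 members were found, promoters from RefSeq. Alternatives were other pseudocounts, filters, scalings, variance models, a replicate block, covariates and fewer mice.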

Additional observations from a re-analysis of the deposited data

Results flagged for a closer look

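In 4 of 78 groups of 6 mice (39 members, sham and stroke apart), 1 mouse stood apart from its group by Dixon's criterion, and chance gives about 1 in 20 groups. Cd8b1 was 8.40 in sham mouse 1 and 0.925 to 2.24 in the other sham controls. Pdcd1 was 1.45 in sham mouse 1 against 0.226 to 0.531. Thy1 was 403.9 in sham mouse 6 against 79.3 to 136.9. Cxcr6 was 11.6 in stroke mouse 5 against 4.50 to 5.82 in the other stroke mice.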

How the results depend on the processing

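The median log2 fold change of the members stayed above 0, and no member passed at an adjusted p, under every alternative run, including the covariate and the removal of pairs of mice, which were added after seeing the data. Counts at an unadjusted p were less steady, and the cause was not tested. The number of all genes higher was 1418 with no filter, 420 after scaling to the same total, 417 when immunoglobulin genes were left out of that total and 1633 at the same B cell level. The number lower was 106, 100 and 32 under these scalings in turn, 648 with sample quality weights, 159 with the epithelial covariate and 838 without sham 6 and stroke 5. The 1 gene at an adjusted p became 0 with a pseudocount of 0.1, a floor of 1 for each mouse, no filter, quantile normalization, the same B cell level, the epithelial covariate and the removal of sham 6 and stroke 5, and 2 with quality weights. Members higher were 0 after quantile normalization and without sham 6 and stroke 5, 2 of 35 (5.71%) after both scalings to a total, with quality weights and with the covariate, and 3 (8.57%) at the same B cell level and without sham 1 and sham 2. The shares of all genes higher were 3.2% and 6.11%, then 2.77%, 2.8%, 6.39% and 3.81%, then 10.8% and 3.43%. Members lower were 0 after both scalings to a total, at the same B cell level, with the covariate and without sham 1 and sham 2, where 0.699%, 0.671%, 0.211%, 1.05% and 1.07% of all genes were lower.

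Same-numbered mice did not deviate together in every pair (correlations of -0.013 to 0.49, 5 of 6 over 0.1, 1 pair best matched to its own number), so that the numbers were not taken to pair the mice. In the fit blocked by that number, 920 genes were higher (6.07%) and 483 lower (3.19%), 0 passed at an adjusted p, and 3 members (8.57%) were higher (Foxp3, Il7r and Sh2d1a). In the ratio of Cd8a to Cd4 the block gave an exact sign-flip p of 0.938.

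Log2 fold changes of members not called changed sign as follows. Scaling to the same total gave 0.059 for Cd4 and 0.066 for Cd8b1, and 0.055 and 0.063 without immunoglobulin genes. The same B cell level gave 0.19 for Cd4, 0.17 for Cd8b1, 0.029 for Trac, 0.013 for Tbx21 and 0.10 for Ccl5. Quality weights gave -0.048 for Cd3g, 0.0077 for Cd4, 0.17 for Cd8b1, -0.086 for Lat, -0.019 for Lck and -0.048 for Trbc1. The epithelial covariate gave 0.29 for Cd3e, 0.10 for Cd8b1, 0.14 for Trac, -0.11 for Thy1, 0.65 for Ccl5, 0.24 for Nkg7, 0.57 for Gzma and 0.54 for Gzmb. Removal of sham 1 and sham 2 gave 0.15 for Cd3e, 0.16 for Cd4, 0.33 for Cd8b1, -0.0016 for Lck, -0.00091 for Thy1, 0.44 for Ccl5, 0.068 for Gzma and 0.12 for Gzmb. Removal of sham 6 and stroke 5 gave 0.029 for Cd4, 0.069 for Cd8b1 and 0.065 for Trac.

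Leaving out each mouse in turn gave 466 (without stroke 6) to 1104 (without sham 6) genes higher, 166 to 1272 (without sham 6; 382 without stroke 1) lower, 0 to 2 at an adjusted p, 0 to 5 members higher (5 without sham 1) and 1 member lower throughout. The median of the members was 0.020 to 0.30, the Cd8a to Cd4 ratio -0.23 to 0.37 and the difference in the pan-T sum -2.91 to 14.6. Members whose sign changed were Cd3e (-0.64 to 0.010), Cd3g (-0.22 to 0.56), Cd4 (-0.25 to 0.094), Cd8a (-0.16 to 0.36), Cd8b1 (-0.22 to 0.31), Lat (-0.11 to 0.24), Lck (-0.016 to 0.13), Trac (-0.44 to 0.13), Trbc1 (-0.16 to 0.24), Trbc2 (-0.086 to 0.35), Gata3 (-0.055 to 0.46), Tbx21 (-0.34 to 0.014), Skap1 (-0.084 to 0.20), Ccl5 (-0.61 to 0.16), Nkg7 (-0.79 to 0.022), Gzma (-1.09 to 0.14) and Gzmb (-0.98 to 0.16). Values near or below 1, as of Cd28, Icos, Pdcd1 and Il21, lie under the filter, and without read counts no limit of detection can be set for them.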
